A study of Mus musculus with 13 samples.

Results

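The measurements below follow 40 genes of blood vascular and lymphatic endothelium through RNA-seq of mouse embryonic foregut and trachea. The genes were chosen by symbol as a set known for their expression in endothelial cells, with earlier results of these data known. The other gene lists below were also chosen with those results known, so their counts are no independent test. All 40 genes were found among the 32793 genes of the tables. By role they comprised 12 junction and surface genes, 9 transcription factors, 15 receptors, ligands and other signalling genes, and 4 genes of lymphatic and sinusoidal endothelium.

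Endothelial cells line every blood and lymphatic vessel. ETS factors such as Erg and Fli1, together with the Sox7, Sox17 and Sox18 group, keep their gene programme on. VE-cadherin (Cdh5) and PECAM1 hold neighbouring cells together, while the angiopoietin receptor TIE2 (Tek), the apelin receptor (Aplnr), Dll4-Notch4 signalling and the VEGF receptors govern how vessels sprout and mature. Lymphatic endothelium arises mainly from veins under control of Prox1. Sinusoidal endothelium, best known from liver, takes up spent molecules through scavenger receptors such as the stabilins. In the embryonic foregut a vessel plexus forms in the mesenchyme around the epithelial tube.

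Mutant embryos were Foxg1Cre;Gli3TFlag/+, and control embryos were Gli3TFlag/+ without the Cre according to the sample titles. Gli3TFlag is a transgene that, once recombined by Cre, makes a truncated Gli3 protein acting as a constant repressor of Hedgehog target genes. Foxg1Cre recombines in both endoderm and mesoderm of the foregut. Whether recombination also took place in the endothelium was not analysed here. The 13 libraries came from E10.5 foregut (3 mutants and 3 controls) and E11.5 trachea (4 mutants and 3 controls), each replicate an embryo dissection. The labels give the strain as C57BL/6, whereas the study's methods describe an outbred background.

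Total counts per library ran between 15366076 and 17988461 in E10.5 foregut and between 9646701 and 15916434 in E11.5 trachea. Gli3 itself, whose transcript the transgene shares in part, stood at 330, 323 and 352 CPM (counts scaled to the library total) in E10.5 mutants against 256, 251 and 284 CPM in E10.5 controls. At E11.5 it stood at 437, 376, 403 and 399 CPM in mutants against 266, 192 and 204 CPM in controls. Every mutant exceeded every control of its stage. Markers of other tissues differed between libraries and in part between genotypes. Whether dissection or genotype made this difference was not tested. The summed level of 10 cardiomyocyte markers was 292, 2260 and 131 CPM in E10.5 mutants against 79.3 to 88.8 CPM in controls, and 917 to 5070 CPM in E11.5 mutants against 64.9 to 876 CPM in controls. Mutant replicate 2 held the most at both stages. The folds of all 9 cardiomyocyte markers tested at E10.5 and all 10 tested at E11.5 were above 0, and none passed the test (before adjustment 9 and 8 did). The sum of 6 markers of endocardium, the endothelium of the heart, was 148 to 213 CPM in E11.5 mutants against 100.1 to 111 CPM in controls, with 3 of 6 called higher (Nfatc1, Hapln1 and Gata4). In E10.5 foregut it was 102 to 169 CPM in mutants against 90.5 to 121 CPM in controls, overlapping. The sum of 7 epithelial markers was 293 to 505 CPM in E11.5 mutants against 152 to 224 CPM in controls, with 5 called higher, and 446 to 600 CPM in E10.5 mutants against 372 to 490 CPM in controls, with none called (4 before adjustment). All 7 had folds above 0 at both stages. Of all genes, 1.81% were called higher at E11.5, and before adjustment 9.23% were higher at E10.5 and 10.8% at E11.5. For 5 megakaryocyte markers the sum was 16.0 to 23.0 CPM in E10.5 mutants against 3.96 to 13.9 CPM in controls, and it overlapped between genotypes at E11.5. The sum of 8 mural cell markers overlapped between genotypes at both stages. At E11.5, 4 of the 7 tested had folds above 0 and 3 below, with 1 called lower, against 0.689% of all genes. Rgs5 measured 24.3, 20.2, 32.5 and 29.1 CPM in E11.5 mutants against 339, 76.5 and 74.6 CPM in controls. At E10.5 none was called (1 higher and 2 lower before adjustment, against 9.23% and 9.56% of all genes). The part of these tissues in the genotype differences given below was not tested. The sum of 9 erythroid markers was lowest in control replicate 3 at E10.5 (1700 CPM) and in control replicate 1 at E11.5 (3163 CPM), against 8438 to 29697 CPM elsewhere. Xist exceeded 100 CPM in 2 of 3 mutants and 0 of 3 controls at E10.5, and in 2 of 4 mutants and 1 of 3 controls at E11.5. Apln is the only X-linked gene of the set.

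All 40 genes were measurable, and 37 had at least 10 counts in every library. The exceptions were Lyve1, Stab2 and Gpr182, with lowest counts of 5, 3 and 9, so their folds rest on few counts. On the TPM scale, which corrects for transcript length, the highest medians over the 13 libraries were those of Ets1 (62.57 TPM), Cdh5 (52.44 TPM) and Emcn (38.13 TPM). Ets1, an ETS factor, is also made by mesenchymal cells. Of the 40 genes, 18 had a median of at least 10 TPM and 7 had a median under 2 TPM, among them Lyve1 (0.98 TPM) and Stab2 (0.35 TPM). The defining endothelial markers Pecam1, Cdh5, Tek, Tie1, Emcn and Kdr were present in every library and summed to 338, 410 and 281 CPM in E10.5 mutants against 246, 247 and 282 CPM in E10.5 controls. At E11.5 they summed to 347, 356, 433 and 407 CPM in mutants against 299.9, 298 and 246 CPM in controls. In bulk tissue, a change in the number of endothelial cells and a change in RNA per endothelial cell cannot be told apart.

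**Figure D1:**
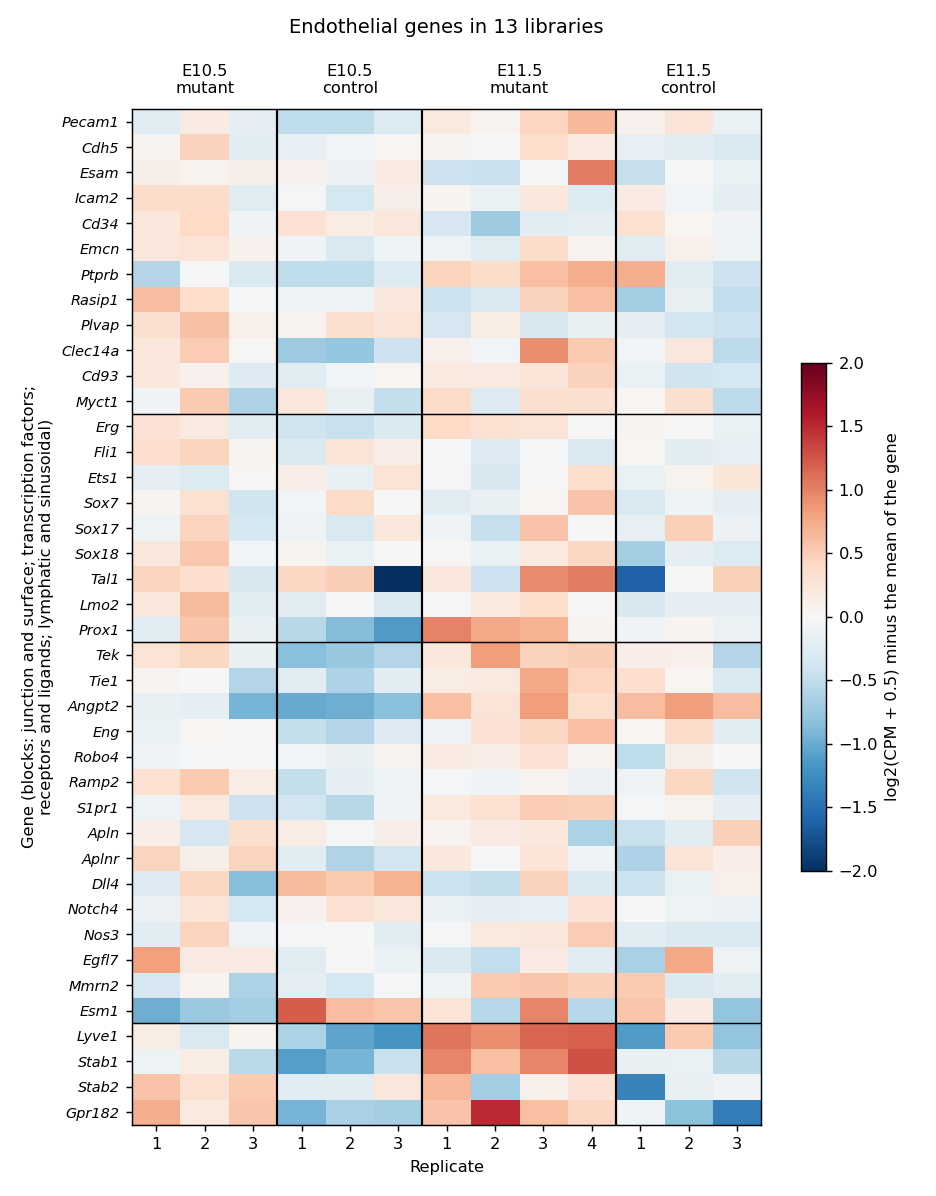
Level of the 40 genes in the 13 libraries, as log2(CPM + 0.5) minus the mean of the gene, with genes in rows by role and libraries in columns by stage, genotype and replicate. Tal1 is lowest in E10.5 control replicate 3 and E11.5 control replicate 1, and Lyve1, Stab1 and Gpr182 are above their means in the 4 E11.5 mutants.

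Promoter windows are shown for Tek, Esm1 and Stab1, the called genes of the genotype comparisons below for which a RefSeq window was matched. Windows run 250 bases before to 50 bases after the annotated start, in RefSeq on GRCm38.p6. RefSeq windows were matched for 19 of the 40 genes, giving 25 windows of 300 bases. Capitals mark matches on either strand to a SOX, a GATA or an ETS motif, each spelled out after the windows.
Tek, chr4:94739039-94739338, plus strand: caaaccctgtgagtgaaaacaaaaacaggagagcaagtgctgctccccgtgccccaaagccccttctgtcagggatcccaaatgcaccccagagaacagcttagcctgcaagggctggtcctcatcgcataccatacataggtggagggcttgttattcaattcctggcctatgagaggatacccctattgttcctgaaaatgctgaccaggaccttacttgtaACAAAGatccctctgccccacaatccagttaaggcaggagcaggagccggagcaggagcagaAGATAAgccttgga
Esm1, chr13:113209409-113209708, plus strand: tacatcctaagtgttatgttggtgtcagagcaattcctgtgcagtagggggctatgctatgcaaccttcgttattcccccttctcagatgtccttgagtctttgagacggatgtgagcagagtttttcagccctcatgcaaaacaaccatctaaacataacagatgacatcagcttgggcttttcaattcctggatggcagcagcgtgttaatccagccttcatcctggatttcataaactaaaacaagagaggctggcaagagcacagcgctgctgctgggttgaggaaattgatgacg
Stab1, chr14:31168592-31168891, minus strand: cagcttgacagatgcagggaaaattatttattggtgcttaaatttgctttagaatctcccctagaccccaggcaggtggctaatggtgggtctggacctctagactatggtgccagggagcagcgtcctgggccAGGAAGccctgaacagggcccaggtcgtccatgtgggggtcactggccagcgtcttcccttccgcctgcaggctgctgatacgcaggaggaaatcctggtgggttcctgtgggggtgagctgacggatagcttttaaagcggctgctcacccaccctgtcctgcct

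The Tek window held 1 SOX and 1 GATA match, the Stab1 window 1 ETS match, and the Esm1 window none of the motifs searched. The ETS motif searched, AGGAAG on both strands, was found in 14 of the 25 windows (56%), against 35.4% of all 32851 windows of the same length. The SOX motif ACAAAG was found in 20% of the 25 windows against 18.7% of all, and another SOX motif, ACAATG, in 8% against 12.6%. The GATA motif AGATAA was found in 16% against 11.2%. A further ETS motif, CCGGAA, which can overlap the one above, was found in 0% against 14.9%. The GLI motif GACCACCCA was found in 0% against 0.253%. A match describes the letters of the window only.

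In E10.5 foregut, Tek and Aplnr were higher and Esm1 was lower in mutants than in controls, and the other 37 genes did not pass the test. Folds are log2 values of mutant over control from edgeR's quasi-likelihood test, given with their standard error (SE), and a gene was called at a Benjamini-Hochberg adjusted p under 0.05 over all genes tested. The 2 higher and 1 lower calls among 40 compare with 0.314% of 15295 genes called higher and 0.405% called lower. The fold was above 0 for 32 genes and below 0 for 8, with a median of 0.24 against 0.03 over all genes. Before adjustment, 14 genes were higher and 2 lower at p under 0.05, where 9.23% and 9.56% of all genes were. Every mutant lay above every control for 13 of the 40 and below for 2. Over all 15295 genes tested this held for 1765 and 2065. With the fold also required to be at least 1 in size, the remaining call was Esm1, where 0.137% of all genes were called higher and 0.118% lower.

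In E11.5 trachea, Stab1 and Cd93 were higher in mutants than in controls and none of the 40 was called lower by edgeR, DESeq2 or limma-voom. Of all 15376 genes tested, 1.81% were called higher and 0.689% lower. The fold was above 0 for 33 genes and below 0 for 7, with a median of 0.29 against -0.01 over all genes. Before adjustment 11 genes were higher and 1, Cd34, was lower, where 10.8% and 8.32% of all genes were. Every mutant lay above every control for 11 of the 40 and below for 1. Over all 15376 genes tested this held for 1451 and 1144. Stab1 alone had a called fold of at least 1, where 0.845% of all genes were called higher at that size and 0.41% lower.

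**Figure D2:**
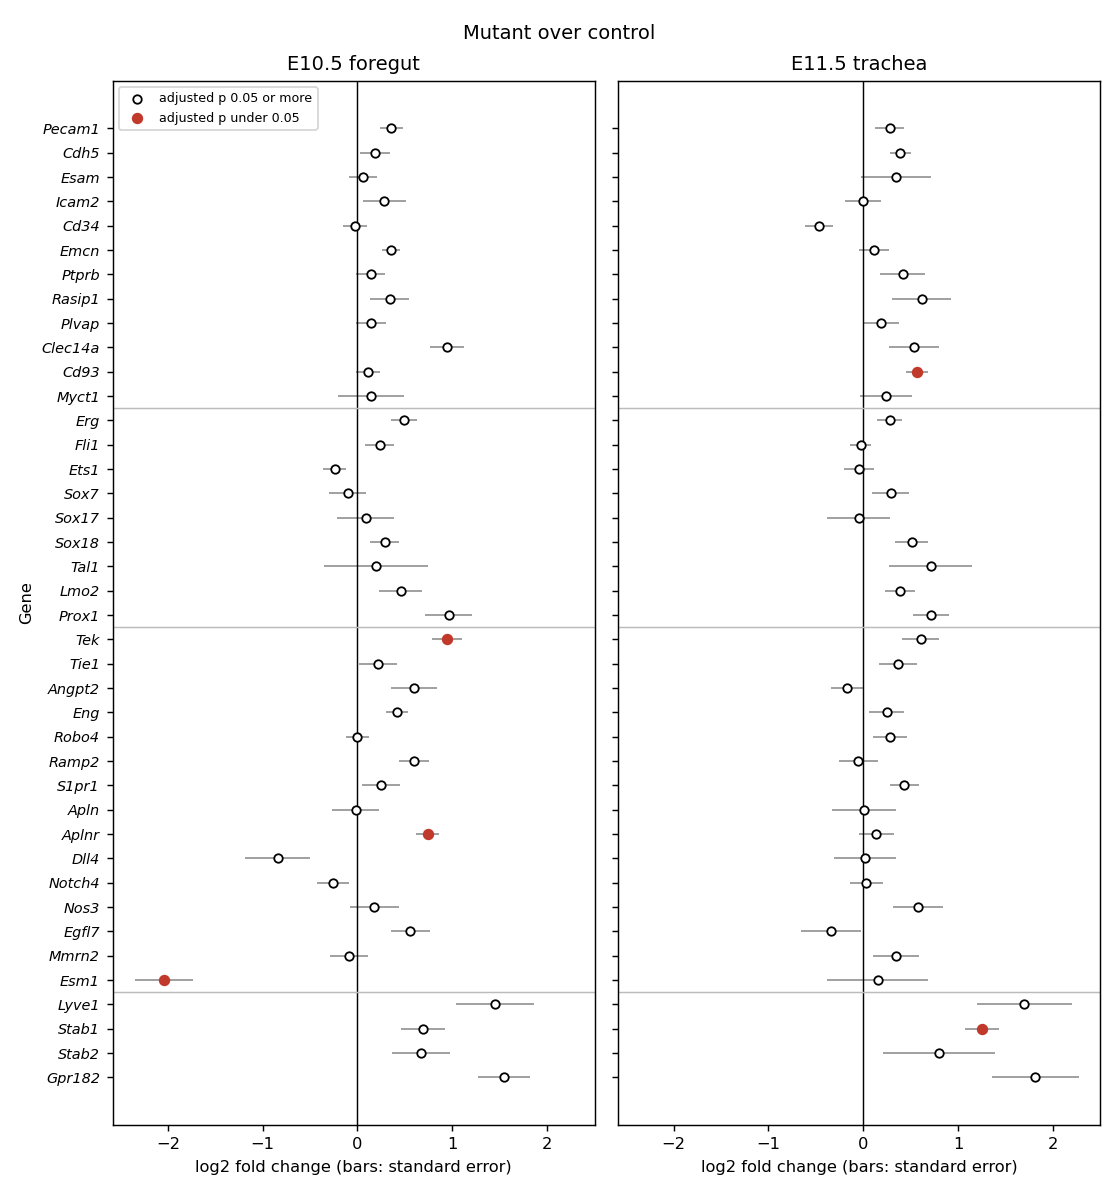
Log2 fold change of mutant over control for each of the 40 genes in E10.5 foregut (left) and E11.5 trachea (right), with bars for the SE and filled points for adjusted p under 0.05. Filled points are Tek, Aplnr and Esm1 at E10.5 and Cd93 and Stab1 at E11.5, and most open points lie to the right of 0.

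Across the stages, 27 genes had a fold above 0 at both and 2, Cd34 and Ets1, a fold below 0 at both. None was called at both stages. Prox1, Tek, Lyve1, Stab1 and Gpr182 were above 0 with an unadjusted p under 0.05 at each stage. The share of all genes that met these conditions in both comparisons was not computed. Whether the 27 and the 5 exceed that share therefore cannot be judged. The difference between stages in the genotype fold was tested as an interaction over the 13 libraries. None of the 40 passed it in either direction, where 0.0248% of 16132 genes passed as higher and 0% as lower, and DESeq2 and limma-voom also called none. Before adjustment 2 of the 40 were higher and 3 lower, against 6.66% and 7.56% of all genes.

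Among the lymphatic and sinusoidal genes, the folds of all 4 were above 0 at both stages, with medians of 1.07 at E10.5 and 1.48 at E11.5. Stab1 encodes stabilin 1, a scavenger receptor of sinusoidal endothelium and of some macrophages. It lies on chr14:31139013-31168641, minus strand, of GRCm38. In E11.5 trachea it measured 43.9, 33.8, 43.9 and 54.1 CPM in mutants against 20.0, 20.1 and 15.0 CPM in controls. The lowest mutant stood well above the highest control. The fold was 1.25 (SE 0.177, adjusted p = 0.00610). In E10.5 foregut Stab1 measured 20.7, 24.8 and 15.0 CPM in mutants against 10.0, 11.4 and 16.1 CPM in controls (fold 0.69, SE 0.231, adjusted p = 0.176). There mutant replicate 3 fell within the range of the controls. The interaction for Stab1 was 0.57 (SE 0.302, adjusted p = 0.408). Exons of Stab1 overlap those of Nt5dc2 on the opposite strand, and the library kits do not mark strand. Nt5dc2 at E11.5 averaged 145 CPM in mutants and 144 CPM in controls (fold 0.01, adjusted p = 0.969). Stab1 at E11.5 passed the test without each library in turn, with adjusted p between 0.00233 and 0.0444.

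Gpr182 encodes a receptor of sinusoidal and lymphatic endothelium that removes chemokines. At E11.5 it measured 3.94, 7.91, 4.03 and 3.47 CPM in mutants against 2.31, 1.2 and 0.640 CPM in controls. At E10.5 it measured 4.43, 2.91 and 3.90 CPM in mutants against 1.07, 1.40 and 1.37 CPM in controls. The groups did not overlap at either stage. The fold was 1.82 at E11.5 (SE 0.456, adjusted p = 0.0649) and 1.55 at E10.5 (SE 0.277, adjusted p = 0.0547), neither past the threshold. Without control replicate 1 at E11.5 the adjusted p was 0.0138. Zbtb39, which overlaps Gpr182 on the opposite strand, had folds of 0.21 at E11.5 (adjusted p = 0.325) and -0.22 at E10.5 (adjusted p = 0.157).

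Lyve1 encodes a hyaluronan receptor of lymphatic endothelium that embryonic macrophages also carry. At E11.5 it measured 3.63, 3.27, 3.91 and 4.03 CPM in mutants against 0.399, 2.32 and 0.640 CPM in controls (fold 1.70, SE 0.502, adjusted p = 0.103). At E10.5 it measured 1.69, 1.10 and 1.55 CPM in mutants against 0.770, 0.447 and 0.370 CPM in controls (fold 1.45, SE 0.413, adjusted p = 0.130). At both stages each mutant exceeded each control, at levels of a few counts in the lowest libraries. Without control replicate 2 at E11.5, its highest control, Lyve1 was called higher (fold 2.80, adjusted p = 0.0196).

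Stab2, the other stabilin and a hyaluronan scavenger, was the least abundant of the 40 genes. It measured 2.47, 0.653, 1.51 and 1.79 CPM in E11.5 mutants against 0.239, 1.2 and 1.28 CPM in E11.5 controls (fold 0.80, SE 0.589, adjusted p = 0.489). In E10.5 foregut it measured 2.27, 1.81 and 2.18 CPM in mutants against 1.13, 1.12 and 1.69 CPM in controls (fold 0.67, SE 0.301, adjusted p = 0.280). Mutants and controls overlapped at E11.5 and did not at E10.5.

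The summed level of these 4 genes was set against that of Pecam1, Cdh5, Tie1 and Emcn, genes shared by nearly all endothelium. It amounted to 22.6%, 20.1%, 17.5% and 22.8% of their sum in E11.5 mutants, against 10.7%, 11.3% and 9.09% in E11.5 controls. In E10.5 foregut the share was 12.4%, 10.6% and 11.4% in mutants, against 6.64%, 7.34% and 8.90% in controls. The share was thus higher in every mutant than in every control of its stage, and Stab1 made up most of it. Tek and Kdr, also defining markers, were left out of the reference sum, and a share with them in it was not computed. The folds of Tek and Kdr were 0.94 and 0.90 at E10.5 and 0.61 and 0.89 at E11.5. Macrophage markers were also higher in mutants. Their sum over 9 genes was 95.9, 61.8, 67.5 and 78.8 CPM in E11.5 mutants against 41.2, 49.2 and 41.4 CPM in controls, and 25.9, 29.5 and 32.6 CPM in E10.5 mutants against 16.7, 19.1 and 16.6 CPM in controls. All 9 had folds above 0 at E11.5, as did all 7 tested at E10.5, none of them called there (6 before adjustment). The macrophage receptor Adgre1 was at 0 in 1 library, E10.5 control replicate 1. Mrc1, a mannose receptor shared by macrophages and sinusoidal endothelium, was the single macrophage marker called, at E11.5 (fold 1.55, adjusted p = 0.00821), and its call was lost without control replicate 3 (adjusted p = 0.0603). The part of the macrophages in the stabilin and Lyve1 levels was not tested. As a description over 13 libraries that share a stage or a genotype, deviations of Stab1 from its group means had a Pearson correlation of 0.84 with those of the endothelial receptor Kdr and of 0.25 with those of the macrophage receptor Csf1r. For Lyve1 the correlations were -0.08 with Kdr and -0.13 with Csf1r. For Stab2 they were -0.28 with Kdr and 0.15 with Csf1r, and for Gpr182 0.25 and -0.21.

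**Figure D3:**
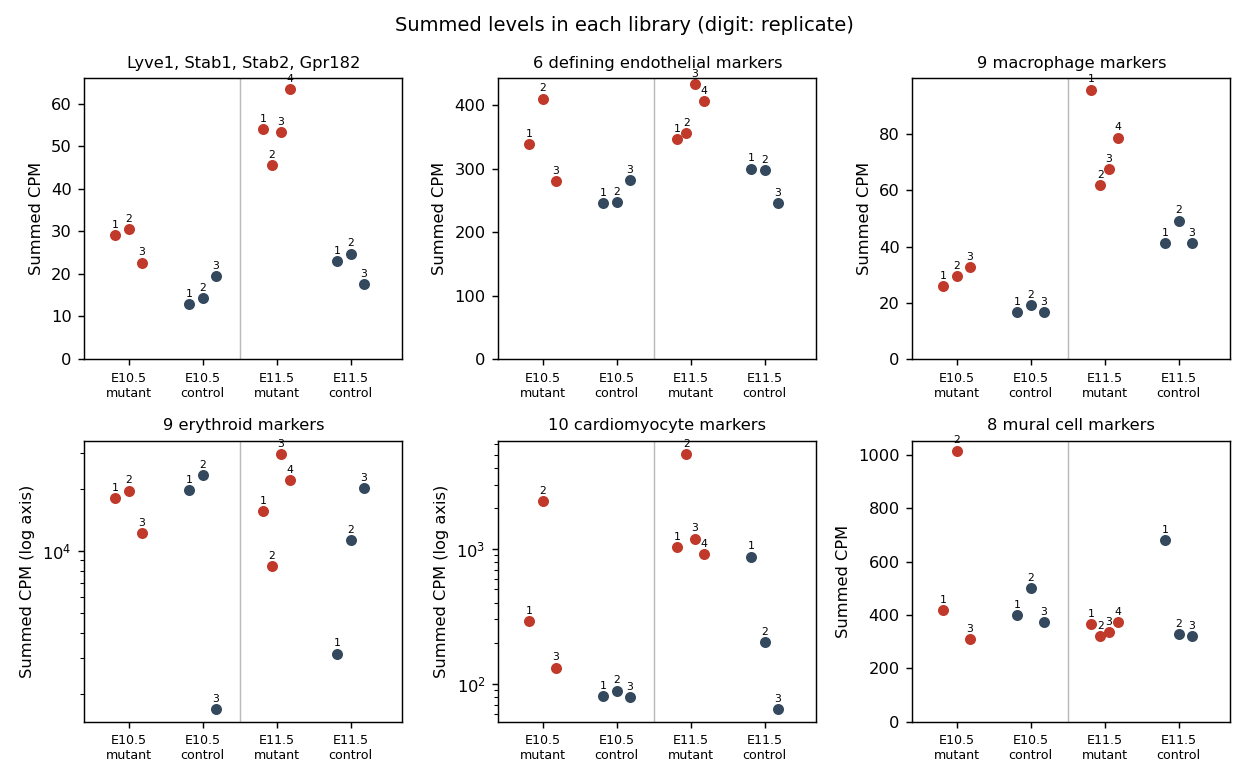
Summed CPM per library of the 4 lymphatic and sinusoidal genes and of 5 marker lists, by stage and genotype, with a digit for the replicate and a log axis for the erythroid and cardiomyocyte markers. The 4 genes sum to 45.6 to 63.4 CPM in E11.5 mutants and 17.6 to 24.8 CPM in E11.5 controls, and cardiomyocyte markers peak in mutant replicate 2 at both stages.

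Among the receptors, ligands and other signalling genes, 2 were called higher and 1 lower at E10.5, and none of the 15 at E11.5 (3 higher and 0 lower before adjustment). Of all genes, 0.314% were called higher and 0.405% lower at E10.5. Before adjustment 10.8% were higher and 8.32% lower at E11.5. The median folds of the 15 were 0.15 in E11.5 trachea and 0.21 in E10.5 foregut. Tek, on chr4:94739289-94874976, plus strand, encodes TIE2, the receptor for angiopoietins that steadies vessel walls. At E10.5 it measured 36.4, 39.8 and 26.9 CPM in mutants against 16.5, 17.4 and 19.7 CPM in controls. Each mutant exceeded each control, and the fold was 0.94 (SE 0.154, adjusted p = 0.0485). E11.5 levels of Tek were 35.0, 53.7, 41.1 and 42.1 CPM in mutants against 32.8, 32.2 and 19.7 CPM in controls (fold 0.61, SE 0.195, adjusted p = 0.129). The groups did not overlap there either, and the interaction was -0.33 (SE 0.277, adjusted p = 0.606). The call at E10.5 rested on each of 5 libraries. The adjusted p of Tek was 0.217, 0.161 and 0.102 without control replicates 1, 2 and 3, and 0.106 and 0.0948 without mutant replicates 1 and 2. Over the 13 libraries, deviations of Tek had a correlation of 0.72 with those of the cardiomyocyte gene Tnnt2 and of 0.78 with those of Kdr, as a description. Without mutant replicate 2, the E10.5 library richest in cardiomyocyte markers, the fold of Tek was 0.82.

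Tie1, the partner receptor of TIE2, measured 19.7, 19.0 and 12.4 CPM in E10.5 mutants against 16.0, 12.2 and 16.0 CPM in controls (fold 0.21, SE 0.200, adjusted p = 0.612). In E11.5 trachea it measured 21.0, 21.7, 32.4 and 25.5 CPM in mutants against 23.9, 19.4 and 15.2 CPM in controls (fold 0.37, SE 0.198, adjusted p = 0.341). Mutants and controls of Tie1 overlapped at both stages. Angpt2, the ligand that loosens TIE2 signalling in growing vessels, measured 9.51, 9.18 and 5.33 CPM in E10.5 mutants against 5.03, 5.14 and 5.70 CPM in controls. In E11.5 trachea Angpt2 measured 16.4, 12.8, 19.4 and 13.8 CPM in mutants against 16.6, 19.4 and 16.5 CPM in controls. Its genotype groups overlapped at each stage and its levels differed by stage, as described below.

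Aplnr, on chr2:85136225-85139923, plus strand, encodes the apelin receptor, a marker of venous and sprouting endothelium that early mesoderm also uses. In E10.5 foregut it measured 94.9, 76.1 and 95.1 CPM in mutants against 59.9, 45.9 and 53.6 CPM in controls. The groups were separate, with a fold of 0.74 (SE 0.123) and an adjusted p of 0.0499988 that lay just below the threshold. In E11.5 trachea it measured 81.2, 69.955, 84.1 and 66.2 CPM in mutants against 45.2, 83.8 and 76.2 CPM in controls (fold 0.14, SE 0.182, adjusted p = 0.716). There control replicate 1 stood apart below the rest, and without it the fold was -0.09. The interaction for Aplnr was -0.60 (SE 0.255, adjusted p = 0.309), and without that control replicate it was -0.82 (adjusted p = 0.0267) and passed the test. At E10.5 Aplnr was not called without control replicates 1, 2 and 3 (adjusted p of 0.208, 0.152 and 0.126) or without mutant replicates 1 and 3 (0.106 and 0.0508). Apln, its ligand, had folds of -0.02 at E10.5 and 0.01 at E11.5 (adjusted p = 0.979 and 0.989).

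Esm1, on chr13:113209659-113218098, plus strand, encodes endocan, a proteoglycan secreted by the tip cells that lead vessel sprouts. In E10.5 foregut it measured 0.816, 1.03 and 1.09 CPM in mutants against 5.45, 3.46 and 3.27 CPM in controls. The highest mutant lay below the lowest control, and Esm1 fell by 2.04 on the log2 scale (SE 0.311, adjusted p = 0.0419). In E11.5 trachea it measured 2.63, 1.23, 4.60 and 1.23 CPM in mutants against 3.27, 2.39 and 0.995 CPM in controls (fold 0.15, SE 0.530, adjusted p = 0.903). The E11.5 groups overlapped in part, with mutant replicate 3 above every control and control replicate 3 below every mutant. The interaction was 2.20 (SE 0.707), with the smallest p of the 40 genes, and an adjusted p of 0.212. At E10.5 the adjusted p of Esm1 was 0.211, 0.137 and 0.0818 without control replicates 1, 2 and 3, and 0.0984 and 0.0904 without mutant replicates 1 and 2. The fold stayed between -2.18 and -1.78 over those settings.

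Dll4, the Notch ligand of tip and arterial cells, was among the 8 of 40 genes with a fold below 0 at E10.5 and was not called. It measured 3.21, 5.37 and 1.95 CPM in mutants against 6.34, 5.87 and 6.65 CPM in controls (fold -0.84, SE 0.339, adjusted p = 0.238). Each mutant stood below each control. In E11.5 trachea Dll4 measured 2.78, 2.69, 5.61 and 3.13 CPM in mutants against 2.79, 3.52 and 4.26 CPM in controls, overlapping. The remaining signalling genes (Eng, Robo4, Ramp2, S1pr1, Notch4, Nos3, Egfl7 and Mmrn2) had adjusted p values of at least 0.113 at E10.5 and at least 0.162 at E11.5.

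**Figure D4:**
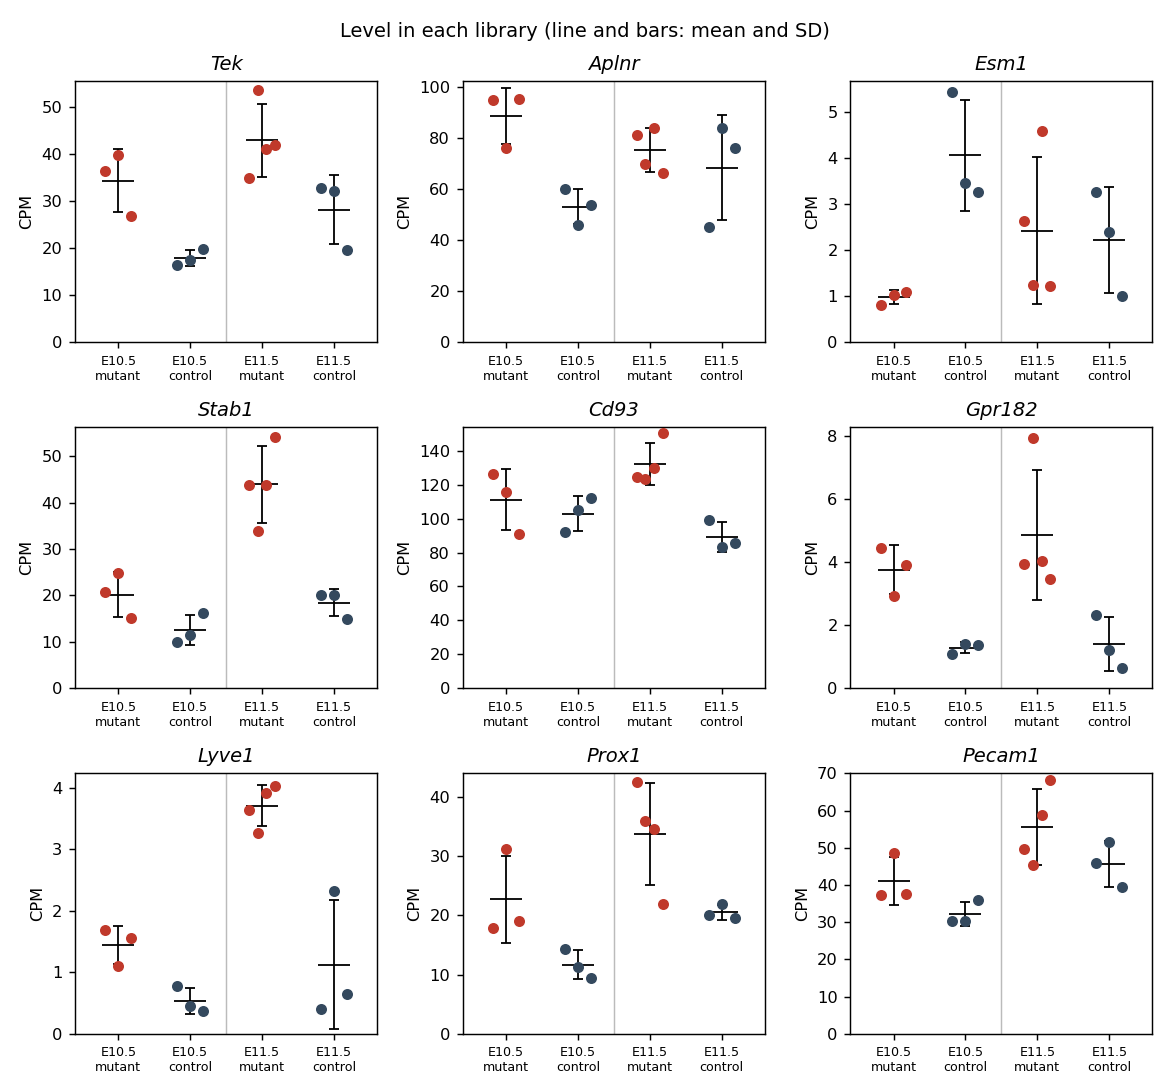
CPM of 9 of the genes in each library, by stage and genotype, with a line and bars for the mean and SD (3 libraries per group, 4 for E11.5 mutants). E10.5 mutants lie above E10.5 controls for Tek, Aplnr and Gpr182 and below them for Esm1, and E11.5 mutants lie above E11.5 controls for Stab1, Cd93, Gpr182 and Lyve1.

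Among the junction and surface genes, 11 of 12 had folds above 0 at each stage, with medians of 0.16 at E10.5 and 0.31 at E11.5. Cd93, on chr2:148436640-148443563, minus strand, encodes a C-type lectin-like receptor of endothelial adhesion. In E11.5 trachea it measured 124.8, 123.6, 129.99 and 150.8 CPM in mutants against 99.4, 83.1 and 85.5 CPM in controls. All mutants exceeded all controls, with a fold of 0.56 (SE 0.115, adjusted p = 0.0321). In E10.5 foregut the groups overlapped, with 127, 116 and 91.2 CPM in mutants against 91.9, 105 and 112 CPM in controls (fold 0.11, SE 0.127, adjusted p = 0.678). The interaction was 0.46 (SE 0.174, adjusted p = 0.264). Leaving out control replicates 2 and 3 gave adjusted p values of 0.145 and 0.155 for Cd93 at E11.5. Leaving out mutant replicates 1, 2, 3 and 4 gave 0.0703, 0.0514, 0.0717 and 0.0559.

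Clec14a, a related lectin of sprouting endothelium, measured 13.2, 16.1 and 11.4 CPM in E10.5 mutants against 6.57, 6.31 and 8.24 CPM in controls (fold 0.95, SE 0.179, adjusted p = 0.0560). In E11.5 trachea it measured 12.1, 10.8, 21.9 and 16.2 CPM in mutants against 10.7, 13.2 and 7.67 CPM in controls (fold 0.54, SE 0.267, adjusted p = 0.303). That fold was 0.30 without mutant replicate 3. Its groups were separate at E10.5, just outside the threshold, and overlapped at E11.5. Without mutant replicate 3 at E10.5 the adjusted p was 0.0388.

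Pecam1, the platelet endothelial adhesion molecule, measured 37.2, 48.5 and 37.7 CPM in E10.5 mutants against 30.2, 30.3 and 35.8 CPM in controls (fold 0.36, SE 0.125, adjusted p = 0.189). In trachea Pecam1 measured 49.8, 45.3, 58.8 and 68.2 CPM in mutants against 45.9, 51.7 and 39.4 CPM in controls (fold 0.28, SE 0.155, adjusted p = 0.354). Mutant levels were separate from control levels at E10.5 and overlapped at E11.5. Cdh5, or VE-cadherin, measured 134.7, 130.3, 166.4 and 147.6 CPM in E11.5 mutants against 115.8, 110.4 and 104.7 CPM in controls (fold 0.39, SE 0.111, adjusted p = 0.0955). At E10.5 it measured 135.2, 178.3 and 110.5 CPM in mutants against 115.2, 124.4 and 133.8 CPM in controls (fold 0.19, SE 0.159, adjusted p = 0.573). Its E11.5 groups were separate and its E10.5 groups overlapped, and without mutant replicate 2 at E10.5 the fold was -0.02.

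Emcn, a sialomucin of venous and capillary endothelium, measured 41.8, 43.1 and 38.1 CPM in E10.5 mutants against 33.8, 28.8 and 33.7 CPM in controls (fold 0.36, SE 0.0933, adjusted p = 0.110). In trachea Emcn measured 33.4, 30.0, 46.4 and 37.5 CPM in mutants against 30.2, 38.5 and 33.6 CPM in controls (fold 0.11, SE 0.158, adjusted p = 0.743). Separate at E10.5, the groups overlapped at E11.5. Plvap, which forms the diaphragms of permeable capillaries, measured 13.5, 16.2 and 11.47 CPM in E10.5 mutants against 11.2, 13.4 and 12.8 CPM in controls (fold 0.14, SE 0.158, adjusted p = 0.682). In trachea Plvap measured 8.35, 11.9, 8.38 and 9.51 CPM in mutants against 9.26, 8.10 and 7.75 CPM in controls (fold 0.19, SE 0.194, adjusted p = 0.633). Plvap was highest in mutant replicate 2 at each stage, the replicate richest in cardiomyocyte markers, and its correlation with Tnnt2 over 13 libraries was 0.79.

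Cd34, a sialomucin of endothelial and early blood cells, had the only unadjusted p under 0.05 with a fold below 0 at E11.5. It measured 33.3, 25.7, 35.9 and 37.1 CPM in mutants against 52.5, 43.7 and 40.1 CPM in controls (fold -0.46, SE 0.149, adjusted p = 0.129). Every mutant stood below every control. At E10.5 its fold was -0.02 (adjusted p = 0.940). The remaining junction and surface genes (Esam, Icam2, Ptprb, Rasip1 and Myct1) had adjusted p values of at least 0.413 at E10.5 and at least 0.305 at E11.5.

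Among the transcription factors none of the 9 passed at either stage (2 were higher at E10.5 and 3 at E11.5 before adjustment). Before adjustment 9.23% of all genes were higher at E10.5 and 10.8% at E11.5. Of the 9 factors, 7 at E10.5 and 6 at E11.5 had folds above 0, with medians of 0.23 and 0.29. Prox1, which gives lymphatic cells their identity and is also made in heart and liver, measured 42.5, 35.9, 34.5 and 21.93 CPM in E11.5 mutants against 20.1, 21.90 and 19.5 CPM in controls. At E10.5 it measured 17.9, 31.2 and 19.0 CPM in mutants against 14.3, 11.3 and 9.40 CPM in controls. The lowest E11.5 mutant, replicate 4, lay level with the highest control, and the E10.5 groups were separate. The folds were 0.72 at E11.5 (SE 0.190, adjusted p = 0.0755) and 0.96 at E10.5 (SE 0.246, adjusted p = 0.106). Without mutant replicate 4 the E11.5 adjusted p was 0.0153. The correlation of Prox1 with Tnnt2 was 0.65 and the sum of 6 hepatoblast markers stayed between 0.559 and 9.69 CPM in all 13 libraries.

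Erg, the ETS factor that maintains endothelial identity, measured 31.3, 29.1 and 22 CPM in E10.5 mutants against 19.2, 18.7 and 20.9 CPM in controls (fold 0.49, SE 0.140, adjusted p = 0.130). At E11.5 it measured 33.8, 31.6, 31.0 and 25.3 CPM in mutants against 26.5, 25.5 and 23.2 CPM in controls (fold 0.28, SE 0.131, adjusted p = 0.278). The groups were separate at E10.5 and overlapped at E11.5. Without mutant replicate 3 at E10.5, Erg was called higher (adjusted p = 0.0383). Tal1, a factor of blood and endothelial precursors, measured 38.0, 35.4 and 22.1 CPM in E10.5 mutants against 37.4, 39.6 and 6.65 CPM in controls, and 32.9, 20.8, 54.2 and 57.2 CPM in E11.5 mutants against 8.78, 27.6 and 38.9 CPM in controls. Its genotype groups overlapped at both stages, and its lowest library at each stage was the one poorest in erythroid markers. Over the 13 libraries its deviations had a correlation of 0.99 with those of the embryonic globin Hbb-y and of 0.93 with those of Gata1. Fli1, Ets1, Sox7, Sox17, Sox18 and Lmo2 had adjusted p values of at least 0.318 at E10.5 and at least 0.157 at E11.5.

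Partners of these genes were taken from a list of 36 genes of VEGF, Notch, angiopoietin and related vessel signalling. At E11.5, of 35 tested, 2 were called higher and 3 lower, where 1.81% and 0.689% of all genes were. The median fold of the 35 was 0.26. Flt4, the VEGF-C receptor of lymphatic and sprouting endothelium, measured 81.0, 75.3, 59.2 and 70.5 CPM in E11.5 mutants against 40.8, 42.5 and 39.8 CPM in controls (fold 0.80, SE 0.119, adjusted p = 0.00821). Kdr, the main VEGF-A receptor, measured 72.8, 75.2, 87.6 and 85.9 CPM in E11.5 mutants against 51.3, 46.0 and 32.8 CPM in controls (fold 0.89, SE 0.151, adjusted p = 0.0171). Both receptors were separate between genotypes. Jag1, a Notch ligand of arterial and non-endothelial cells, measured 34.9, 44.4, 41.4 and 49.9 CPM in E11.5 mutants against 108, 79.3 and 84.5 CPM in controls (fold -1.09, SE 0.145, adjusted p = 0.00447). Its Notch target Hey1 and the VEGF-family ligand Pgf were the other called-lower genes. The calls of Flt4 and Kdr were lost without control replicate 3 (adjusted p of 0.0630 and 0.0603), and that of Kdr also without control replicate 2 (0.0596). The call of Hey1 was lost without control replicates 2 and 3 (adjusted p of 0.133 and 0.155) and without mutant replicates 1, 2 and 4 (0.0905, 0.0690 and 0.0786). That of Pgf was lost without control replicates 2 and 3 and mutant replicate 3 (0.119, 0.0535 and 0.0640).

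At E10.5, of 34 partners tested, none was called higher (7 before adjustment) and 1, Pgf, was called lower, with a median fold of 0.15. Of all genes, 9.23% were higher before adjustment and 0.405% were called lower. Pgf measured 3.27, 3.69 and 5.22 CPM in mutants against 12.6, 11.7 and 13.6 CPM in controls (fold -1.63, SE 0.200, adjusted p = 0.0278). Kdr measured 68.2, 81.5 and 55.0 CPM in mutants against 33.9, 33.7 and 42.5 CPM in controls (fold 0.90, SE 0.154, adjusted p = 0.0514), separate yet outside the threshold. Without mutant replicate 3 it was called higher (adjusted p = 0.0151). The call of Pgf was lost without control replicates 1, 2 and 3 (adjusted p of 0.204, 0.105 and 0.0783) and without mutant replicates 1 and 2 (0.0720 and 0.0601).

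Lymphatic genes beyond the 40 came from a list of 12, of which 4 were called higher and none lower at E11.5 (0 lower before adjustment). Of all genes, 1.81% were called higher and 0.689% lower at E11.5, and 0.314% and 0.405% at E10.5. The median E11.5 fold of the list was 0.70. The 4 called were Itga9, Ccbe1, Flt4 and Mmrn1, and without control replicate 3 the call of Mmrn1 was lost (adjusted p = 0.0691). Itga9, an integrin of lymphatic valves also made by muscle and mesenchyme, measured 162, 145, 156 and 171 CPM in E11.5 mutants against 75.1, 74.8 and 82.5 CPM in controls (fold 1.03, SE 0.102, adjusted p = 0.000947). Ccbe1, a secreted protein that promotes VEGF-C processing, measured 43.8, 26.1, 32.1 and 32.0 CPM in mutants against 10.9, 9.58 and 12.8 CPM in controls (fold 1.59, SE 0.191, adjusted p = 0.00246). Both are also made by cells other than endothelium. At E10.5, of 11 tested, Ccbe1 was the single call, at 24.7, 18 and 22.8 CPM in mutants against 4.09, 3.19 and 6.71 CPM in controls (fold 2.23, SE 0.271, adjusted p = 0.0278), and the median fold of the list was 0.25. Its E10.5 call was lost without control replicates 1 and 2 and mutant replicate 1 (adjusted p of 0.208, 0.0951 and 0.0720). Pdpn, the lymphatic surface mucin, was present in every library at 5.68 to 12.2 CPM and was not called at either stage.

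Of the 12 sinusoidal genes listed, 8 were tested at each stage. At E11.5, 5 were called higher and none lower (0 before adjustment), where 1.81% and 0.689% of all genes were called. The folds were above 0 for 5 of the 8 and below 0 for 3, with a median of 0.85. At E10.5, 1 was called higher and none lower (0 before adjustment), where 0.314% and 0.405% of all genes were called. There the folds were above 0 for 6 and below 0 for 2, with a median of 0.62. The 5 called at E11.5 were Oit3, Mrc1, Maf, Gata4 and Flt4, of which Mrc1, Gata4 and Flt4 also stand on the macrophage, endocardium and lymphatic lists above. Flt4 stands on the partner list too. The calls of Maf and Gata4 were lost in 4 and 3 of 7 fits that left out a library, with adjusted p up to 0.139 for Maf and 0.111 for Gata4 (each without control replicate 3). Oit3, a secreted protein of liver sinusoids, measured 4.18, 7.18, 7.82 and 10.515 CPM in E11.5 mutants against 0.319, 1.06 and 0.213 CPM in controls (fold 3.76, SE 0.512, adjusted p = 0.00497). At E10.5 it measured 4.26, 1.81 and 2.18 CPM in mutants against 0.237, 0.391 and 0.422 CPM in controls (fold 2.95, SE 0.467, adjusted p = 0.0455). The groups were separate at both stages. The E10.5 call was lost without any one of control replicates 1, 2 and 3 or mutant replicates 1 and 2 (adjusted p of 0.212, 0.161, 0.117, 0.0900 and 0.0636). Clec4g and Fcgr2b, defining markers of mature liver sinusoids, were at 0 in most libraries and at most 0.189 CPM in any.

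Stage was compared next, E11.5 trachea against E10.5 foregut within each genotype. Stage, tissue and count table changed together and cannot be told apart. In controls 5 of the 40 genes were higher at E11.5 (Angpt2, Prox1, Tek, Pecam1 and Eng) and 1, Plvap, was lower. Of all 16132 genes, 11.2% were called higher and 10.1% lower. The median fold was 0.07, against 0.03 over all genes. In mutants 3 were higher (Stab1, Angpt2 and Ptprb) and 3 lower (Cd34, Fli1 and Plvap), where 8.12% and 7.4% of all genes were, with medians of 0.16 and -0.01.

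**Figure D5:**
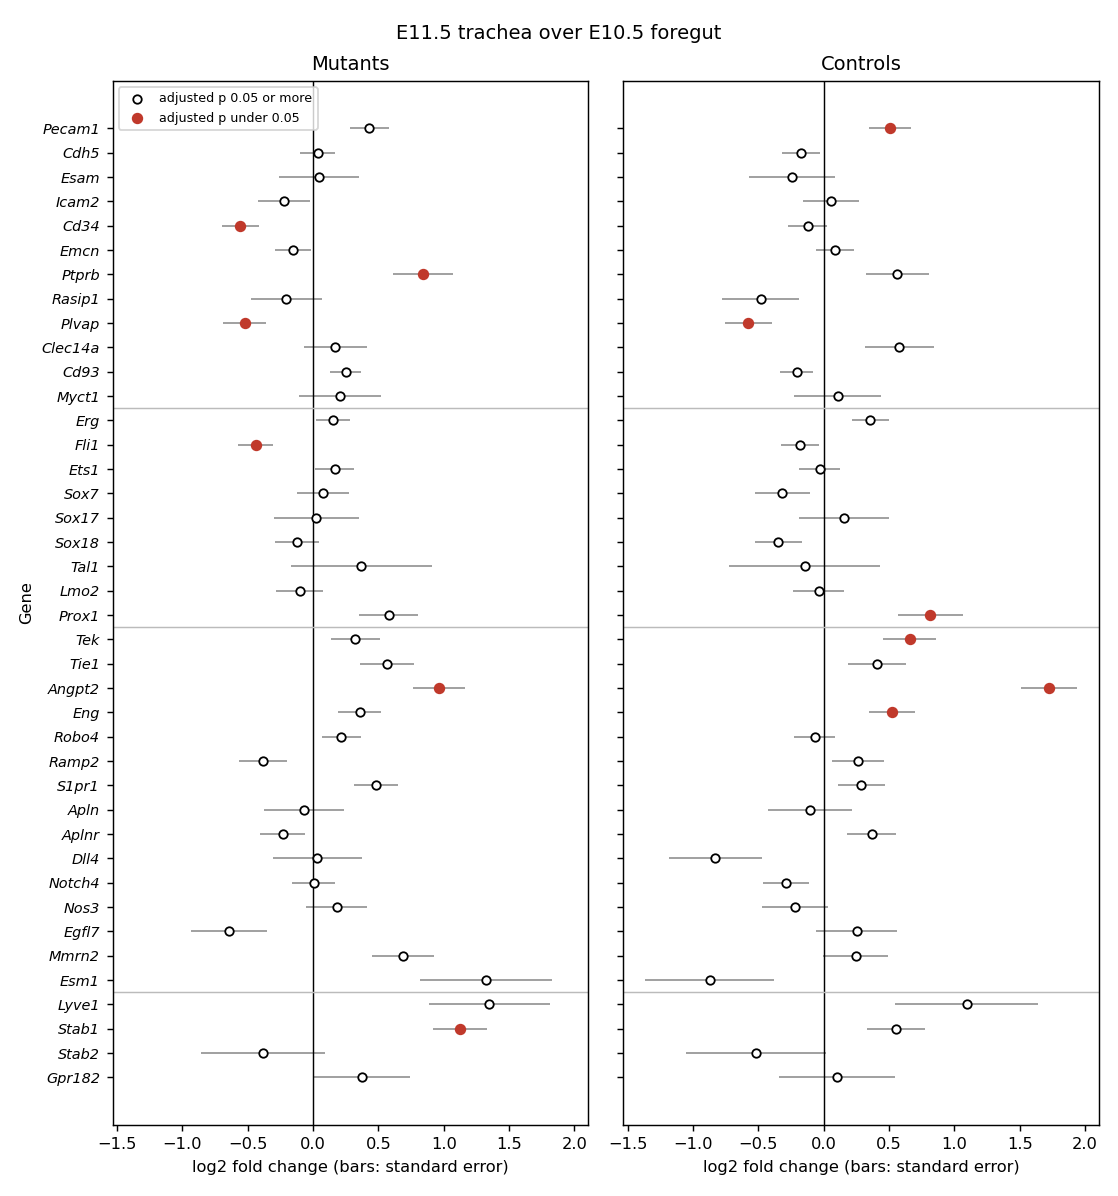
Log2 fold change of E11.5 trachea over E10.5 foregut for the 40 genes in mutants (left) and controls (right), with bars for the SE and filled points for adjusted p under 0.05. Angpt2 is a filled point above 0 and Plvap a filled point below 0 in both genotypes.

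Angpt2 had a fold of 0.96 in mutants (SE 0.201, adjusted p = 0.00665) and of 1.72 in controls (SE 0.216, adjusted p = 0.000210). In controls it measured 16.6, 19.4 and 16.5 CPM at E11.5 against 5.03, 5.14 and 5.70 CPM at E10.5, and in mutants 16.4, 12.8, 19.4 and 13.8 CPM at E11.5 against 9.51, 9.18 and 5.33 CPM at E10.5. The stages were separate in both genotypes. The difference between the genotypes, the interaction, was -0.76 (SE 0.290, adjusted p = 0.265).

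Plvap had a fold of -0.52 in mutants (SE 0.164, adjusted p = 0.0443) and of -0.58 in controls (SE 0.177, adjusted p = 0.0331). Its E11.5 and E10.5 levels overlapped in mutants and were separate in controls. Both calls were close to the threshold. Over the fits that left out a library, the adjusted p of Plvap reached 0.176 in mutants, without E10.5 mutant replicate 2, and 0.0984 in controls, without E10.5 control replicate 2.

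In mutants Stab1 had a stage fold of 1.12 (SE 0.207, adjusted p = 0.00323), with all E11.5 mutants above all E10.5 mutants. In controls its stage fold was 0.55 (SE 0.223, adjusted p = 0.0928). The stage fold of Cd34 was -0.56 in mutants (SE 0.141, adjusted p = 0.0181) and -0.12 in controls (SE 0.151, adjusted p = 0.598). The interaction was -0.43 for Cd34 (SE 0.207, adjusted p = 0.361) and 0.57 for Stab1, as above, and neither passed. Without E10.5 mutant replicates 1 and 2 the adjusted p of Cd34 in mutants was 0.0577 and 0.0791.

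Among the calls made in controls, Prox1 had a fold of 0.82 (SE 0.246, adjusted p = 0.0309), Tek of 0.66 (SE 0.205, adjusted p = 0.0360), Pecam1 of 0.51 (SE 0.158, adjusted p = 0.0360) and Eng, the TGF-beta coreceptor endoglin, of 0.52 (SE 0.177, adjusted p = 0.0489). The matching folds in mutants were 0.58 for Prox1, 0.32 for Tek, 0.43 for Pecam1 and 0.36 for Eng, none called. Each of these 4 control calls was lost in some fits without 1 library, with the highest adjusted p at 0.117 for Prox1 (without E10.5 control replicate 3), 0.136 for Tek, 0.152 for Pecam1 and 0.235 for Eng (each without E11.5 control replicate 2). Ptprb, a phosphatase that acts on TIE2, had a fold of 0.84 in mutants (SE 0.228, adjusted p = 0.0241), with its highest adjusted p at 0.103 without E10.5 mutant replicate 1. Fli1 had a fold of -0.44 in mutants (SE 0.135, adjusted p = 0.0412), with its highest at 0.139 without E10.5 mutant replicate 2.

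Some wide stage folds were not called. Lyve1 had a stage fold of 1.35 in mutants (SE 0.462, adjusted p = 0.0637) and of 1.09 in controls (SE 0.547, adjusted p = 0.169). The mutant stage fold passed in the fits without E11.5 control replicate 1 or 2 (adjusted p of 0.0309 and 0.0148). Esm1 had a stage fold of 1.33 in mutants (SE 0.505, adjusted p = 0.0917) and of -0.87 in controls (SE 0.496, adjusted p = 0.225). The mutant stage fold of Esm1 was 0.80 without E11.5 mutant replicate 3, and its control stage fold was -0.53 without E11.5 control replicate 3. Egfl7, a secreted matrix protein of vessels, had a stage fold of -0.64 in mutants (SE 0.289, adjusted p = 0.148), and Dll4 one of -0.83 in controls (SE 0.355, adjusted p = 0.110). Without E11.5 control replicate 2, its highest control, the control stage fold of Lyve1 was -0.02.

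Libraries of 1 group also differed from each other. The mean deviation of the 40 genes from their group means, on the log2 CPM scale, ran from -0.21 in E10.5 mutant replicate 3 to 0.18 in E11.5 mutant replicate 3. E10.5 mutant replicate 2 stood at 0.17 and E11.5 mutant replicate 2 at -0.17. As a description over 13 libraries, deviations of single genes correlated with those of Kdr at up to 0.85 (S1pr1) and down to -0.71 (Apln), and the closest pairs were Emcn with Sox17 (correlation 0.89) and Robo4 with Aplnr (0.89).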

How the data were processed

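RNA was taken from mouse E10.5 foregut and E11.5 trachea, amplified with an unstranded kit and sequenced as single reads. The authors trimmed and aligned the reads with the CSBB pipeline and deposited RSEM 1.3.0 expected counts per gene, as whole numbers on mm10, with TPM values in separate tables, also made by the authors. The gene annotation behind the counts was not stated in the labels. Deposited counts went into the fits unchanged.

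All 32793 genes of the tables entered the filter (filterByExpr), TMM scaling and edgeR's quasi-likelihood test (edgeR 4.0.16, R 4.3.3), with Benjamini-Hochberg adjustment over every gene tested. Genotypes were compared within a stage, as the study did. Stages and the interaction were fitted over the 13 libraries, 1 coefficient a group. CPM, counts scaled to the effective library size, use TMM factors of the 13 libraries, and deviations are of log2(CPM + 0.5). Replicates were separate dissections. No column was left unmapped.

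Genes with values in every library included a fixed list of 10 (Pecam1, Cdh5, Tek, Tie1, Emcn, Erg, Plvap, Prox1, Lyve1 and Stab2) and the called genes. Also included were the 5 with the smallest p in each genotype comparison and the 3 widest stage folds in each direction. Tal1 was added outside these rules. Of other lists, the 3 genes with the smallest p were eligible. Pdpn, Clec4g, Fcgr2b and Rgs5 were named after their values were seen. The 40 genes and the lists were chosen with earlier results of these data known. Alternatives were RLE factors, library size only, other count filters, DESeq2 1.42.0, limma-voom (limma 3.58.1), limma on log2(TPM + 1) and log2(TPM + 0.1), the replicate number as a block, other sets of libraries in the fit and each library left out. The fits were tested on simulated data.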

Additional observations from a re-analysis of the deposited data

Results flagged for a closer look

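In the 4 E11.5 mutants, the level of 5 of the 40 genes had 1 library far from the others by Dixon's test. Chance flags about 1 in 20 groups. Gpr182 stood at 7.91 CPM in mutant replicate 2, against 3.47 to 4.03 CPM in the other mutants. Myct1, a surface protein of endothelium, stood at 4.21 CPM in the same replicate, against 6.49 to 6.73 CPM. Dll4 stood at 5.61 CPM in mutant replicate 3, against 2.69 to 3.13 CPM, and Notch4, a Notch receptor of endothelium, at 16.8 CPM in mutant replicate 4, against 11.8 to 12.4 CPM. Mmrn2, a matrix protein that binds CD93, stood at 11.8 CPM in mutant replicate 1, against 17.8 to 19.0 CPM. The 5 genes fell on 4 different libraries. Groups of 3 were not examined in this way.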

How the results depend on the processing

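Stab1 at E11.5 was called in the 10 other settings and without each of the 7 libraries. The counts of called genes moved more. At E10.5 the 2 called higher became 0 with library size only, limma-voom, both TPM scales or all 13 libraries in the fit, and 5 with DESeq2. The 1 called lower became 0 with limma-voom, log2(TPM + 1) and the single fit. At E11.5 the 2 called higher became 4 with no filter, 6 with DESeq2 and 1 on both TPM scales. In the control stage comparison the 5 higher became 3 with limma-voom and 2 on both TPM scales, and the 1 lower became 0 on both TPM scales and 2 with the libraries of the compared groups alone. In the mutant stage comparison the 3 higher became 8 with DESeq2 and 5 with limma-voom, and the 3 lower became 1 on both TPM scales.

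Leaving out 1 library in turn gave 0 to 3 genes higher and 0 to 1 lower at E10.5, and 1 to 4 higher at E11.5. It gave 1 to 5 higher and 0 to 1 lower between stages in controls, 2 to 7 higher and 0 to 3 lower in mutants, and 0 to 1 lower in the interaction. The fold of some genes that were not called changed sign. The fold of Cdh5 at E10.5 was -0.0176 without mutant replicate 2 (-0.02 to 0.34 over the libraries left out), that of Emcn at E11.5 -0.0300 without mutant replicate 3 (-0.03 to 0.20), and that of Aplnr at E11.5 -0.0909 without control replicate 1 (-0.09 to 0.31). Esm1 at E11.5 was at -0.20 without control replicate 3 and -0.38 without mutant replicate 3 (-0.38 to 0.53), and at -0.0078 and -0.0194 on the TPM scales with pseudocounts of 1 and 0.1. The control stage fold of Lyve1 was -0.0186 without E11.5 control replicate 2 (-0.02 to 1.48). The cause was not tested. Over the single genes described, 1182 alternative values kept their direction and their side of the threshold, 167 lost a call, 31 gained one and 8, those just given, changed sign.

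With the replicate number as a block, 1 gene was called higher (Aplnr) and 0 lower at E10.5. At E11.5 the 2 called higher were Prox1 and Stab1, without Cd93. In the control stage comparison 3 were called higher. In the mutant stage comparison 3 were called higher, with Prox1 in place of Ptprb, and 1 lower. Same-numbered deviations correlated at 0.0773, 0.170 and 0.188 at E10.5, where each library was closest to its own number, and at -0.0829, -0.0957 and 0.134 at E11.5. Not every pair passed 0.1, and so few pairs cannot settle whether the numbers mark real pairs. Whether same-numbered libraries shared a litter or a batch was not tested. E11.5 mutant replicate 4 has no partner.

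With 3 or 4 libraries a group, E10.5 calls of Tek, Aplnr and Esm1 and the E11.5 call of Cd93 lay close to the threshold. Counts under 10 in some libraries limit Lyve1, Stab2 and Gpr182. Without E10.5 mutant replicate 2 the median fold of the 40 genes at E10.5 was 0.14, and without E10.5 mutant replicate 3 it was 0.40.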
